A study of Mus musculus with 8 samples.

Results

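Tumours of Apc mutant mice with and without HAI-1 in the intestinal epithelium were compared. The comparison rested on the 4 arrays that the titles give as tumours, 2 from HAI-1 deficient mice and 2 from control mice, out of 8 arrays in the series. The other 4 arrays measured non-tumour mucosa of the small intestine of the same genotypes and served for the pooled spread and for the comparison with tumours. Control mice had the genotype Apc (Min/+)/Spint1 (flox/flox), and HAI-1 deficient mice carried Vil-Cre in addition. All mice had a C57BL/6 background and ate an AIN-76 diet, and their ages are not given in the labels. All 4 groups thus shared the Min allele of Apc and the floxed Spint1 alleles, and no group carried Vil-Cre without floxed Spint1. The villin promoter directs Cre to the intestinal epithelium, so recombination is not directed to stromal and immune cells of the deficient tumours. Whether arrays of 1 group came from separate mice, pools or tumours cannot be read from the labels, so the errors below measure only the spread between these samples, which may be technical.

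HAI-1, the product of Spint1, is a Kunitz-type inhibitor anchored in the membrane of epithelial cells. It blocks serine proteases of the cell surface, above all matriptase and the hepatocyte growth factor activator, and matriptase in turn can activate prostasin and pro-hepatocyte growth factor. The Min allele truncates APC, and loss of the remaining copy leaves beta-catenin active and gives rise to intestinal adenomas.

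The values were log2 signals of Affymetrix mouse arrays made from 6 ug of total RNA, 1 value per probe set and array. Of 18195 genes with a probe set of their own, 13119 passed a filter on dim probe sets at a mean log2 signal of 5.20 and were tested. The arrays below are called control 1, control 2, deficient 1 and deficient 2, and values of a gene are always given in that order. The 16 genes of a general epithelial list, such as Vil1 and Epcam, had mean log2 levels of 13.51, 13.54, 13.51 and 13.41, so all 4 samples were rich in epithelial RNA. Signal from the Y-linked gene Eif2s3y was present on all 4 arrays, at log2 10.83 to 11.28. The ratio of the 3' to the 5' probe set of Gapdh, a measure of RNA quality, was 1.77, 25.9, 0.885 and 1.35 on the tumour arrays. On the mucosa arrays it was 0.803 to 0.975. The Actb ratio was 1.52, 2.32, 1.32 and 1.28 on the tumour arrays. Both ratios were thus higher on both control than on both deficient tumour arrays. The part of RNA quality in the differences below was not tested. Deficient 2 was the single tumour array with a high signal of the poly-A spike-in controls, at a mean log2 of 8.12 against 6.36 to 6.89 on the other 3. In mucosa, replicate 2 stood at 8.48 in control and 8.51 in deficient mice, and replicate 1 at 7.12 and 6.92. The spike-in term used below was fitted over all 8 arrays, and neither control tumour array had a high signal. Pearson's r across the tested genes, which are not independent replicates, was 0.976 between control 1 and deficient 1, above the 0.960 between the 2 control arrays and the 0.947 between the 2 deficient arrays.

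No gene was called between deficient and control tumours with limma at an adjusted p under 0.05, and the smallest adjusted p was 0.779, so all differences below are values that did not pass the test. At an unadjusted p under 0.05 limma listed 802 of 13119 genes (6.11%), 439 higher (3.35%) and 363 lower (2.77%) in deficient tumours. After quantile normalization the split was 363 higher and 510 lower, so the balance of directions depended on the scaling. Both deficient arrays lay above both control arrays for 2437 genes (18.6%) and below both for 2547 (19.4%). An exact permutation test of 2 arrays against 2 cannot give a two-sided p under 0.333 for any single gene. These shares are the background for the counts in the gene lists. Differences are on the log2 scale, deficient minus control, with the standard error of the fit and n = 2 arrays per group.

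Spint1 itself stood at log2 12.75 and 13.06 on the control arrays and at 11.76 and 11.84 on the deficient arrays. The deficient arrays did not overlap with the controls and were alike, and the difference of -1.10 ± 0.24 equals a 2.15-fold lower signal (limma, adjusted p = 0.779). Leaving out any of the 4 tumour arrays gave -1.25 to -0.95. The difference had the direction of the labels, but a clear Spint1 signal remained in the deficient tumours. The sources used here do not place the probe set relative to the deleted exons, so the value is a check of the labels only in its direction. In non-tumour mucosa the same difference was -0.58, and limma's interaction term did not pass the test (-0.52 ± 0.34, adjusted p = 0.686).

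The pericellular protease network of HAI-1 had a median close to that of all genes. Of 22 listed genes 18 were tested, with a median difference of 0.05 against -0.01 for all genes tested, and 1 was higher and 2 were lower at an unadjusted p under 0.05, Spint1 among the latter. St14, the gene of matriptase, had values of 12.74, 12.50, 12.72 and 12.98, and the groups overlapped. Prss8, the gene of prostasin, had values of 9.73, 9.70, 9.48 and 9.28, a difference of -0.34 ± 0.27. Met, the receptor of hepatocyte growth factor, differed by -0.17, its activator gene Hgfac by 0.05, and Epcam, a substrate of matriptase in intestinal epithelium, by 0.05.

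The other inhibitor, a receptor and an activator of plasminogen were also measured. Spint2, which encodes HAI-2, the closest relative of HAI-1, had values of 14.79, 14.98, 14.38 and 14.23. It was lower on both deficient arrays, with a difference of -0.58 ± 0.25. Plaur, the receptor that holds urokinase at the cell surface, had values of 9.51, 8.88, 10.53 and 10.42. Both deficient arrays lay above both controls, by 1.28 ± 0.38. Plat, the tissue plasminogen activator, differed by 0.61 ± 0.42 in tumours and by 2.56 in non-tumour mucosa.

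**Figure D1:**
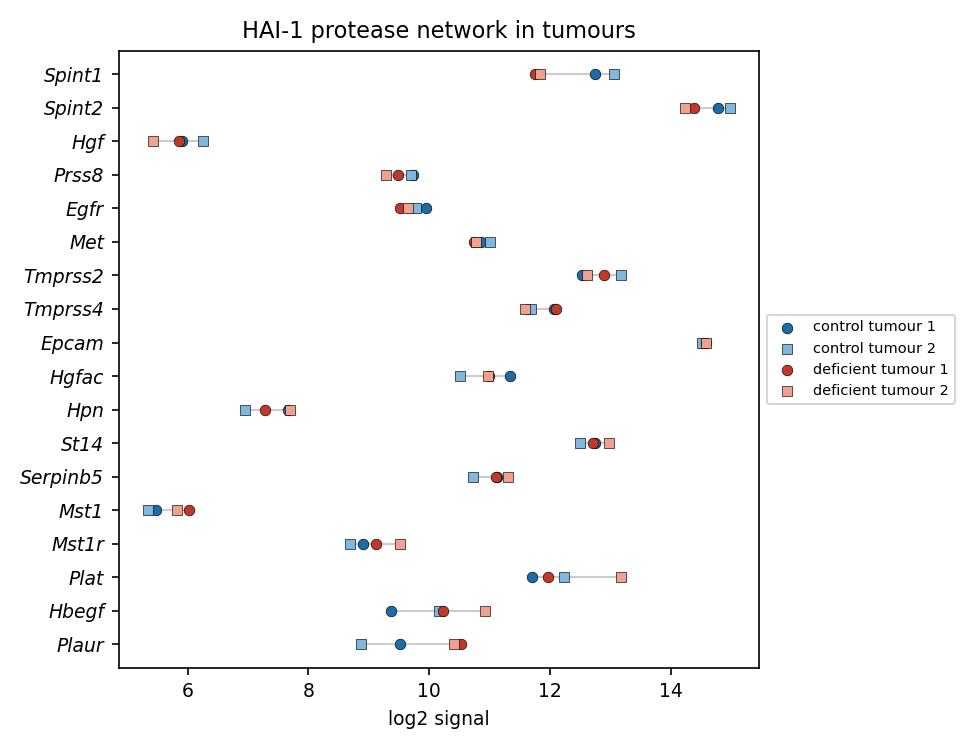
Log2 signal of the 18 tested genes of the HAI-1 protease network on the 4 tumour arrays (x axis); blue marks are control arrays, red marks deficient arrays, circles replicate 1, squares replicate 2, and grey lines span the arrays. Spint1 and Spint2 were lower and Plaur higher on both deficient arrays, while St14, Met and Epcam overlapped or lay close together.

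Of the lists examined, that of antiviral genes induced by interferon had the most members at an unadjusted p under 0.05, and their signals were lower in deficient tumours. Interferon receptors signal to response elements in the promoters of these genes, whose products sense viral RNA, degrade it or block its translation. Of 26 listed genes 22 were tested, and their median difference was -1.24. At an unadjusted p under 0.05, 15 of the 22 were lower and 0 were higher, against 2.77% and 3.35% of all genes tested. Both deficient arrays lay below both controls for 20 of the 22, against 19.4% of all genes.

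Promoter stretches of 4 members are shown because the signals of these genes were lower together and their promoters hold a repeat of the kind that interferon-activated factors are known to bind. Letters come from RefSeq on mouse assembly GRCm38.p6 and run 5′ to 3′ on the gene's own strand, and capitals mark matches to GAAANNGAAA on either strand. Ifit1 is at chr19:34640769-34640828 (+), Ifit3 at chr19:34583365-34583424 (+), Oas3 at chr5:120777700-120777759 (-) and Rsad2 at chr12:26456538-26456597 (-), all upstream of the start that the promoter table uses. That start lies inside the widest annotated span of Ifit3, so the Ifit3 stretch does too.
Ifit1: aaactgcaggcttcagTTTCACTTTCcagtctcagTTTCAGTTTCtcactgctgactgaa
Ifit3: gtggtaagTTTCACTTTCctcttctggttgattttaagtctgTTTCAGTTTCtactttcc
Oas3: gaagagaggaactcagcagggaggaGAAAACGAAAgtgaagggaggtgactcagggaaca
Rsad2: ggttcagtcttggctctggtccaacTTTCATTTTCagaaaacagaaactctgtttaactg
In the first 2 stretches the repeat occurs 2 times, and in the other 2 it occurs 1 time. The motif was searched on both strands, overlapping matches included, from 250 bases before to 50 bases after the start. It occurred in 9 of the 15 antiviral genes with a promoter entry, Bst2, Ddx58, Ifih1, Ifit1, Ifit3, Oas1a, Oas3, Rsad2 and Trim30a, and in 1079 of all 27025 promoters of the table (3.99%). The interferon-gamma list, described below, held it in 8 of 12 promoters (66.7%). A match describes letters and shows no binding. Beside Ifit1 and Rsad2, given next, Ifit3 differed by -1.69 ± 0.51. Oas3 was at least 3.55-fold lower, with deficient 2 under the filter value and raised to it.

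Ifit1, whose product binds foreign RNA that lacks host cap methylation, had values of 10.66, 11.53, 8.71 and 7.42. Both deficient arrays lay well below both controls, and the difference of -3.03 ± 0.50 equals an 8.19-fold lower signal. Usp18, a protease that removes the ubiquitin-like ISG15 and restrains interferon receptor signalling, had values of 9.92, 10.67, 8.49 and 7.18, a 5.52-fold lower signal (-2.46 ± 0.49). Rsad2, the gene of viperin, had values of 9.82, 11.58, 8.44 and 7.65, a difference of -2.65 ± 0.63, and 2 other probe sets gave -1.94 and -0.77. Cmpk2, a mitochondrial nucleotide kinase, differed by -2.41, with values of 9.61, 10.28, 8.29 and 6.78, while another of its probe sets gave -0.50. In each of these genes deficient 2 was the lowest array and control 2 the highest. Herc6 differed by -1.87, but another of its probe sets differed by 0.15. Oasl1 had values of 10.24, 10.50, 10.32 and 10.53, a difference of 0.06, and the groups of Mx1 overlapped.

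The distance between the 2 deficient arrays was part of this picture. Mean log2 levels over the list were 9.34, 9.51, 8.52 and 7.45, and deficient 2 was below deficient 1 in 21 of 22 genes, against 49.7% of all genes tested. The median was -0.80 without deficient 2, -1.89 without deficient 1 and -1.31 without control 2. With the spike-in level as a term of the model it was -0.99. The direction was thus the same on deficient 1 alone and without the control array of high Gapdh ratio, while the size moved with the choice of deficient array. In non-tumour mucosa the median of the list was -2.25, and Ifit1 differed by -3.13.

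**Figure D2:**
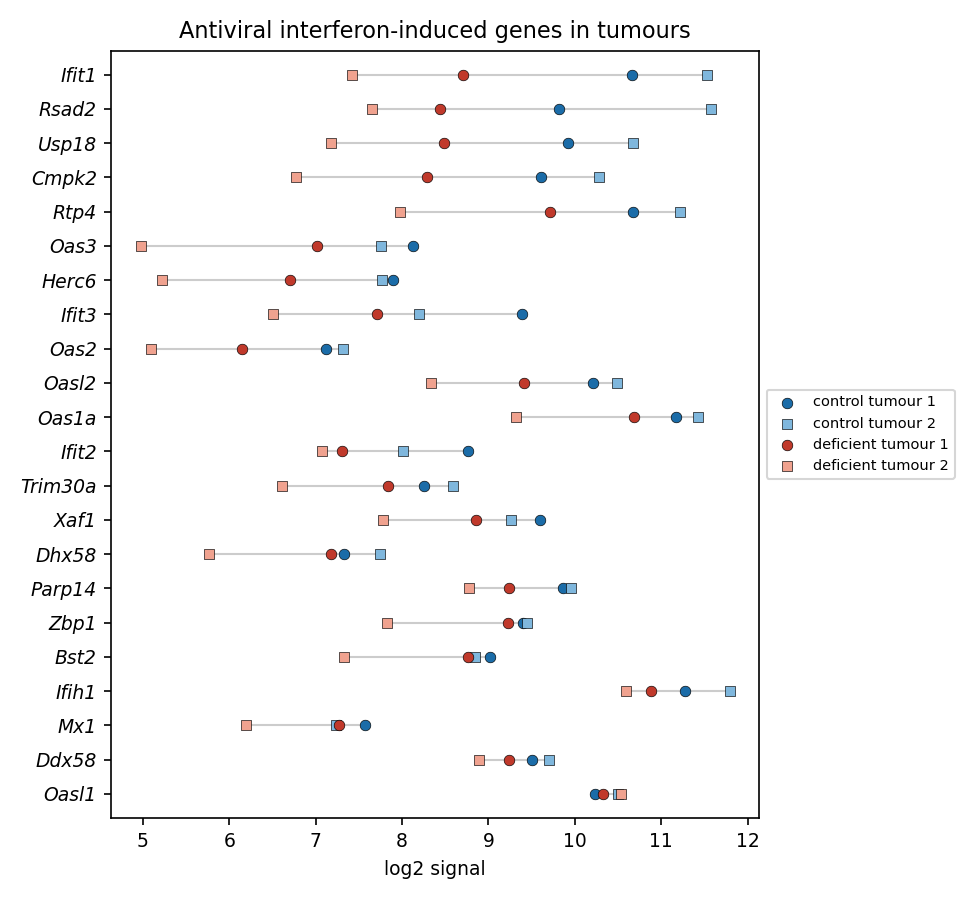
Log2 signal of the 22 tested antiviral genes on the 4 tumour arrays (x axis); blue marks are control arrays, red marks deficient arrays, circles replicate 1 and squares replicate 2. Most genes place both red marks left of both blue marks, with deficient 2 farthest left, and Oasl1 places all 4 marks together.

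The 15 tested receptors and transcription factors of the interferon pathways had a median of -0.07. The receptor genes Ifnar1 and Ifngr1 differed by 0.00 and 0.15, with 0.89 from another probe set of Ifnar1. Ifngr2 differed by 0.90 ± 0.57, with -0.37 from another probe set. The factors Irf9 and Irf1 differed by -0.28 and -0.59, and the groups overlapped in both. Irf7 differed by -0.78 ± 0.57, and by -0.10 without deficient 2. Irf2, which competes with IRF1 for the same promoter elements, had values of 10.45, 11.07, 9.74 and 9.52 and was lower on both deficient arrays (-1.13 ± 0.33). Genes induced mainly by interferon-gamma had a median of -0.37 over 16 genes, with 3 lower at an unadjusted p under 0.05. In all 16, deficient 2 was below deficient 1, and the median was -0.10 without deficient 2 and -0.90 without deficient 1. In non-tumour mucosa it was -0.93. Ido1, which breaks down tryptophan, had values of 9.73, 9.83, 9.40 and 7.80, so its difference of -1.18 came mainly from deficient 2. Ubd, a ubiquitin-like modifier, had values of 7.36, 6.78, 6.40 and 5.38, and its difference was -1.18 in tumours and -4.90 in mucosa (limma, interaction 3.72 ± 0.66, adjusted p = 0.254).

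Genes of antigen presentation had lower signals in deficient tumours. MHC class II molecules present peptides from outside the cell to helper T cells, and intestinal epithelium can express them beside dendritic cells, macrophages and B cells. Of 8 tested class II genes 4 were lower at an unadjusted p under 0.05 and 7 did not overlap, all 7 lower, with a median of -0.95. The matching shares of all genes tested were 2.77% and 19.4%. H2-Ab1 had values of 11.17, 11.85, 10.48 and 10.32 (-1.11 ± 0.32), and H2-Aa had values of 12.52, 13.20, 11.97 and 11.49 (-1.12 ± 0.32). In both, the deficient arrays lay below the controls. The other probe sets gave smaller differences for H2-Ab1 (-0.53 and -0.06) and between -1.56 and -0.18 for H2-Aa. H2-DMa, which loads peptides onto class II, differed by -1.11 ± 0.28, with 0.18 from another probe set. Cd74, the invariant chain, had values of 11.65, 12.61, 11.65 and 9.50, so deficient 1 was level with control 1. The median stayed between -1.22 and -0.76 whichever tumour array was left out, and was -0.94 with the spike-in term and -0.69 with the mean of probe sets. In non-tumour mucosa the class II median was -1.87.

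Among 12 class I genes the median was -0.48, and 2 were lower at an unadjusted p under 0.05. The peptide transporter Tap1 differed by -1.10 and the immunoproteasome subunit Psmb8 by -1.11, with -0.08 from another probe set of Psmb8, while B2m, the light chain, differed by -0.56. The heavy chain genes H2-K1 and H2-D1 differed by -0.21 and -0.02, with other probe sets of H2-D1 between -1.28 and 0.21. The median of the class I list ranged from -0.85 without deficient 1 to -0.17 without deficient 2, and was -0.82 in non-tumour mucosa.

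Markers of T and natural killer cells were lower in deficient tumours as well. In bulk samples, fewer cells of a type and less RNA per cell cannot be told apart. Of 19 tested markers 11 were lower at an unadjusted p under 0.05, 0 were higher, and 15 did not overlap in the lower direction, with a median of -1.04. Of all genes tested, 2.77% were lower at that threshold and 19.4% did not overlap in the lower direction. The summed linear signal of the list was 11924 and 14870 on the control arrays and 7112 and 4195 on the deficient arrays. Cd4, Cd8b1, Cd2 and Tbx21 were under the filter, so the defining marker of helper T cells was not measured above it. The part of these cells in the interferon and class II values was not tested.

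Gzmb, a protease of cytotoxic granules, had values of 10.62, 10.60, 9.39 and 8.71, a difference of -1.56 ± 0.32. Gzma, another granzyme, had values of 12.34, 12.76, 11.54 and 10.59 (-1.48 ± 0.35). Ccl5, a chemokine of activated T cells, had values of 10.66, 11.02, 9.68 and 9.43 (-1.28 ± 0.28). In these 3 genes both deficient arrays lay well below both controls. Cd8a differed by -0.86, with other probe sets between -2.52 and -0.05. Itgae, the integrin that binds T cells to epithelium, differed by -1.04, and Cd3g by -0.64. The median of the list was -0.62 without deficient 2 and -1.31 without deficient 1. In non-tumour mucosa it was -1.24, so the lower signal was not particular to tumours.

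Mast cell genes had the lowest median of the lists, -1.71 over 9 tested genes, with 5 lower at an unadjusted p under 0.05, but most of it lay in deficient 2. Mean log2 levels were 10.80, 10.63, 10.15 and 8.29, and summed linear signals were 47283, 45851, 34781 and 6305. The median was -0.55 without deficient 2, -2.95 without deficient 1 and -1.13 with the spike-in term. In non-tumour mucosa it was -1.27. Fcer1a, a chain of the IgE receptor, had values of 11.04, 11.04, 9.90 and 6.99 (-2.60 ± 0.79). Cpa3, the carboxypeptidase of mast cell granules, had values of 11.64, 11.73, 10.81 and 8.59. In both, deficient 1 was below the controls and deficient 2 far below deficient 1. Mcpt1, a protease of mucosal mast cells, had values of 13.98, 13.65, 13.73 and 10.49, with deficient 1 between the controls. Kit, the 1 tested member above 0, had values of 9.39, 9.22, 9.315 and 9.41. It differed by 0.05, and the groups overlapped. Tpsb2 and Hdc were under the filter.

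Other immune lists stood nearer to 0 and moved with the arrays used. Markers of B and plasma cells had a median of -0.55 over 13 genes, with 0 at an unadjusted p under 0.05 by limma, and those of macrophages and dendritic cells had a median of -0.18 over 17 genes. The B and plasma cell median was -0.12 without deficient 2 and -0.91 without deficient 1, and the macrophage median was -0.59 without control 2, -0.49 without deficient 1 and -0.09 without deficient 2. Neutrophil genes had a median of -0.30 over 12 genes, -0.64 without control 2, -0.72 without deficient 1, -0.08 without control 1, -0.09 without deficient 2 and 0.04 with the spike-in term, and split by gene. Ltf, lactoferrin, had values of 9.69, 7.40, 11.43 and 10.28 (2.31 ± 0.71), while S100a9, a subunit of calprotectin, had values of 10.85, 9.99, 8.74 and 8.38 (-1.86 ± 0.76). In mucosa S100a9 differed by 2.49, the opposite sign. The list of NF-kappaB targets and inflammatory cytokines had a median of -0.21 over 28 genes, with 3 lower at an unadjusted p under 0.05, and 0.04 without control 1 and -0.01 without deficient 2. Ptgs2, the gene of cyclooxygenase-2, an enzyme of prostaglandin synthesis active in Min adenomas, had values of 11.09, 10.15, 9.10 and 9.13. Both deficient arrays lay below both controls and were nearly equal, and the difference was -1.51 ± 0.33 in tumours and 0.72 in mucosa (limma, interaction -2.23 ± 0.47, adjusted p = 0.267). Nfkbia and Tnfaip3, feedback inhibitors of NF-kappaB, differed by -0.20 and 0.16.

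**Figure D3:**
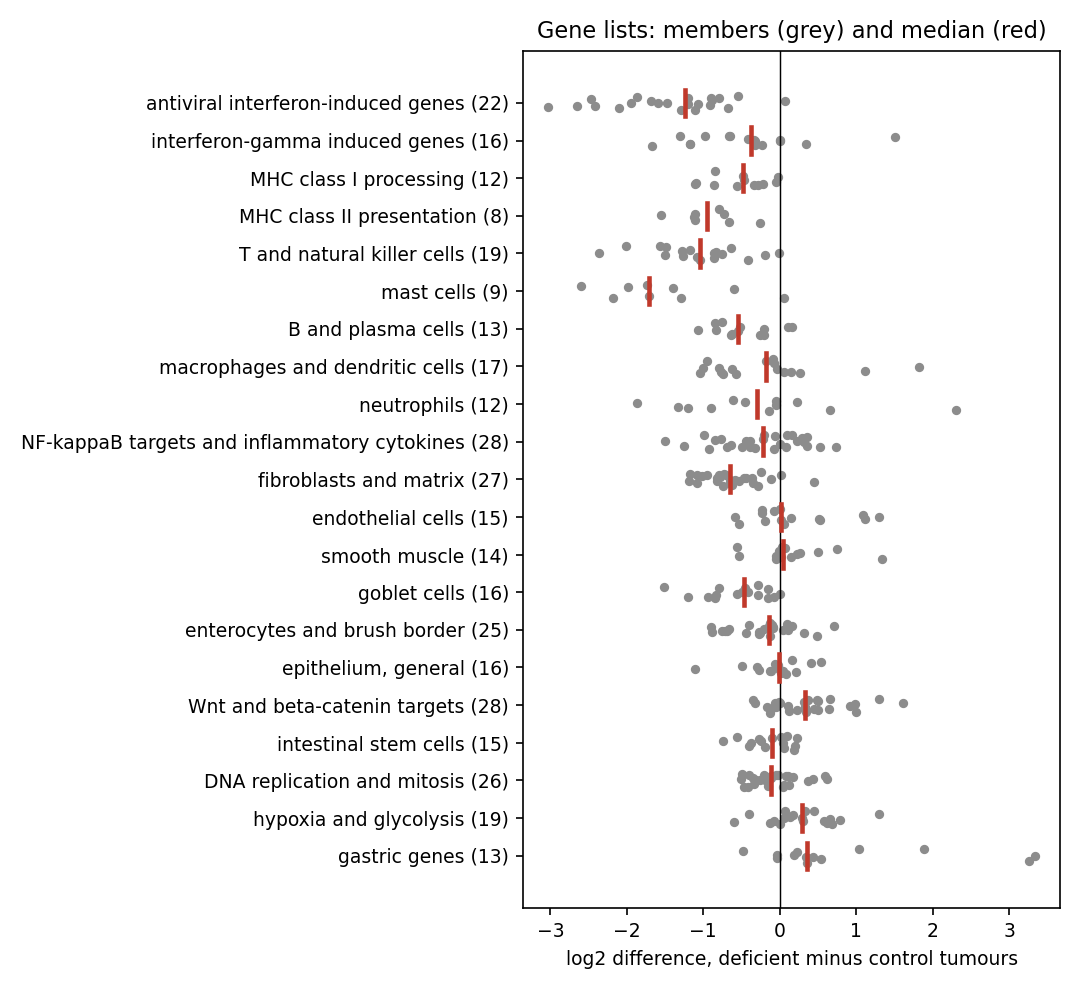
Log2 difference of deficient minus control tumours (x axis) for the members of the gene lists (grey points, number of tested genes in parentheses) with the list median (red). The mast cell, antiviral, T and natural killer cell and MHC class II lists have the lowest medians, between -1.71 and -0.95. The medians of the other lists lie between -0.66 (fibroblasts and matrix) and 0.35 (gastric genes).

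Fibroblast and matrix genes had lower signals in deficient than in control tumours. Of 28 listed genes 27 were tested, with a median of -0.66 in tumours. This median held between -0.74 and -0.52 whichever tumour array was left out. At an unadjusted p under 0.05, 8 were lower, against 2.77% of all genes tested. Without overlap in the lower direction there were 17, against 19.4%. Thy1 is also on the T and natural killer cell list and is counted in both. Fn1, fibronectin, had values of 11.79, 11.86, 11.001 and 10.48 (-1.08 ± 0.27), and another probe set gave -0.59. Col5a1, a chain of the collagen that starts fibrils, had values of 9.80, 9.64, 8.81 and 8.99 (-0.82), with -0.18 from another probe set, and Col5a2 had 11.25, 10.99, 10.34 and 10.34 (-0.78). In these 3 genes both deficient arrays lay below both controls, and the collagen genes differed little within a group. Vim differed by -1.08, Col1a1 by -0.82, Col1a2 by -0.59 and Pdgfra, the receptor that marks subepithelial fibroblasts, by 0.45. Pdgfrb differed by -0.70, with 0.12 from another probe set. Summed linear signals of the list were 65760 and 60909 on the control arrays and 42333 and 42531 on the deficient arrays.

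In mucosa the median of the same 27 genes was 1.04, and 20 of them had the opposite sign from tumours, against 5540 of all 13119 genes tested. At an unadjusted p under 0.05 the interaction term of limma listed 16 of the 27, against 9.23% of all genes tested (1211 genes). No gene of the 13119 was called on this term by limma, and the smallest adjusted p was 0.180, so a difference between tissues was not shown for any single gene. For Col5a1 the interaction was -1.87 ± 0.34 (limma, adjusted p = 0.254). The tumour and mucosa differences rest on separate arrays.

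Among other stromal genes, Sulf1, which trims heparan sulphate chains outside the cell, had values of 9.50, 9.79, 8.42 and 7.82 (-1.52 ± 0.34). Of 13 regulators and markers of epithelial-mesenchymal transition, Zeb1 had values of 8.47, 8.74, 7.51 and 7.90 (-0.90 ± 0.28) and Snai2 had 7.87, 9.06, 7.26 and 7.25 (-1.21 ± 0.39). Both are transcriptional repressors of epithelial genes that fibroblasts also express, and both were lower on the 2 deficient arrays. The list median was -0.06, and Cdh1, E-cadherin, differed by -0.06. Endothelial and smooth muscle lists had medians of 0.02 and 0.05 over 15 and 14 genes. Leaving out 1 array moved the endothelial median between -0.37 (without control 2) and 0.39 (without control 1), and the smooth muscle median between -0.38 (without deficient 1) and 0.42 (without control 2 or deficient 2), so neither had a stable direction. Whether they differ from the fibroblast list was not tested.

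**Figure D4:**
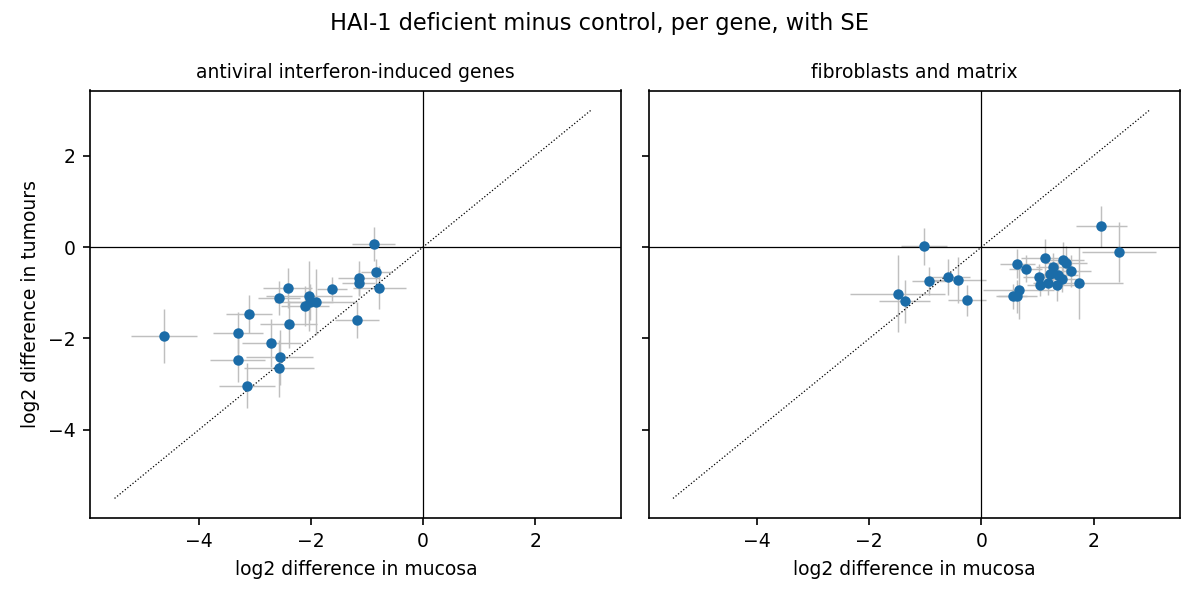
Log2 difference of deficient minus control in tumours (y axis) against that in non-tumour mucosa (x axis) for single genes of the antiviral (left) and fibroblast (right) lists, with standard errors as bars and the line of equality dotted. Most antiviral genes lie in the quadrant where both differences are below 0, whereas most fibroblast and matrix genes lie above 0 in mucosa and below 0 in tumours.

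Within the epithelium, the lists for stem cells, proliferation and enterocytes had medians close to that of all genes. The medians were -0.10 over 15 stem cell genes, -0.12 over 26 genes of DNA replication and mitosis and -0.14 over 25 enterocyte genes. Without deficient 1 the enterocyte median was 0.05 and that of replication -0.29, and without deficient 2 they were -0.37 and 0.10, so both turned sign with the deficient array used. Lgr5, the receptor that marks crypt stem cells, had values of 11.13, 9.98, 10.22 and 10.49, and the groups overlapped. Mki67, expressed in dividing cells, had values of 12.22, 11.87, 11.67 and 11.42 (-0.50 ± 0.36). Olfm4 ranged from 10.48 on deficient 2 to 13.80 on deficient 1, so this crypt gene differed more within the deficient group than between the groups. Slc5a1, the sodium-glucose transporter of the brush border, had values of 13.40, 13.60, 12.57 and 12.91 and was lower on both deficient arrays (-0.76 ± 0.25), but another probe set gave 0.17.

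Among peptide and amino acid transporters 3 of 16 were lower at an unadjusted p under 0.05. Their median of -0.26 was 0.03 without control 1 and -0.05 without deficient 1, so the list as a whole had no stable direction. Slc15a1, which takes up dipeptides and tripeptides, had values of 11.60, 11.30, 10.32 and 9.77, with both deficient arrays well below both controls (-1.40 ± 0.30). Slc43a2 and Slc6a20a, transporters of neutral amino acids and of imino acids, differed by -0.96 and -0.83, with -0.17 from another probe set of Slc43a2. Goblet cell genes had a median of -0.47 over 16 genes, of which 2 were lower at an unadjusted p under 0.05. Muc2, the main secreted mucin of the intestine, had values of 14.62, 14.51, 14.05 and 14.10, a difference of -0.49 with no overlap. The goblet median was -0.13 without deficient 2, -0.29 without control 2 and -0.63 without deficient 1.

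Targets of Wnt and beta-catenin, the pathway that Apc loss sets free, had a median of 0.34 over 28 genes, 19 of them above 0. Only 1 was higher at an unadjusted p under 0.05, and 5 did not overlap in the higher direction (18.6% of all genes). The median was -0.07 without deficient 2, 0.72 without deficient 1 and -0.02 with the spike-in term, so its direction rested on deficient 2. The feedback genes Axin2, Nkd1 and Rnf43 differed by 0.45, 0.50 and 0.99, with other probe sets of Nkd1 between -0.34 and 0.54, and Myc by -0.01. Notum, which inactivates Wnt ligands, differed by -0.12 in tumours and by 2.33 in mucosa. Wif1, a secreted Wnt inhibitor, had values of 9.01, 7.27, 9.84 and 9.67, the lowest on control 2.

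Genes of hypoxia and glycolysis had a median of 0.29 over 19 genes, 15 of them above 0, with 8 not overlapping in the higher direction and 1 higher at an unadjusted p under 0.05. Ak4, a mitochondrial adenylate kinase, had values of 8.12, 7.66, 8.89 and 9.48 (1.29 ± 0.30), with other probe sets between 0.15 and 1.80. Vegfa, the angiogenic growth factor, had values of 9.58, 9.38, 9.93 and 10.20 (0.59). In both genes deficient 2 was the highest array. Slc2a1, the glucose transporter, differed by -0.41 in tumours and by 1.97 in mucosa. The median was 0.10 without control 1, 0.15 without deficient 2 and 0.42 without deficient 1.

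Gastric genes, whose list median was 2.28 in deficient mucosa, stood at 0.35 in deficient tumours over 13 genes, with 3 higher at an unadjusted p under 0.05. Lipf, gastric lipase, had values of 5.60, 4.51, 8.07 and 8.72. Control 2 was under the filter value, and raising it to that value left the deficient arrays at least 7.99-fold higher. Ctse, an aspartic protease already high in tumours, had values of 14.30, 14.74, 14.46 and 14.51, and the groups overlapped, while another probe set gave 1.27. Muc5ac, the mucin of the gastric surface, had values of 5.06, 2.84, 5.10 and 9.32, so deficient 1 stood level with control 1 and only deficient 2 was high. The other 3 tumour arrays were under the filter value, and raising them to it gave at least 4.16-fold, from deficient 2 alone. Muc5ac was 1 of the 3 genes counted above. It passed the filter only through deficient arrays, since the control arrays of both tissues were all under the filter value. The list median was 1.03 without control 1 and 0.73 without deficient 2. The stomach marker Gkn3 differed by 0.34 and Anxa10 by -0.03.

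The genes with the smallest unadjusted p had adjusted p of 0.779 or more with limma. They were 12 in each direction among those with no overlap between the groups and all 4 tumour arrays above the filter value, gene models left out. Separation of the groups was thus a condition of entry. On the higher side, A2m, the broad protease inhibitor alpha-2-macroglobulin, had values of 6.66, 8.52, 10.11 and 11.23. Its difference of 3.08 ± 0.66 equals 8.48-fold, and it ranged from 2.16 to 4.01 when arrays were left out, with a wide gap between the controls. Ildr2, a protein of tricellular junctions, had values of 6.19, 5.81, 7.66 and 9.25 (2.46 ± 0.49). Gabrp, a subunit of the GABA-A receptor, had values of 6.41, 6.26, 7.44 and 8.25 (1.51 ± 0.31), and another of its probe sets gave 2.48. All 3 genes were low in control tumours and highest on deficient 2.

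Tighter arrays within groups were seen for Hapln3, a link protein of hyaluronan and proteoglycans, with values of 5.39, 5.39, 6.56 and 6.51 (1.15 ± 0.23). Dok4, an adaptor of receptor tyrosine kinases, likewise had values of 8.16, 8.02, 9.30 and 9.32 (1.22). In these genes the arrays of a group were almost equal and the groups stood apart. Atf5, a transcription factor of stress responses, had values of 8.19, 7.50, 9.15 and 10.19, with a difference of 1.82 in tumours and 1.83 in mucosa. Gsta3, a glutathione transferase, had values of 7.70, 6.48, 10.09 and 8.67 (2.29), with 1.20 from another probe set. Pacs2, a sorting protein, had values of 7.59, 5.60, 9.14 and 8.96. It differed by 2.45, by 1.46 without control 2, and by 0.16 with another probe set. The remaining genes of this group were Ap1s3, Kmt5c, Vstm2b and Ak4, at 1.29, 1.78, 1.70 and 1.29. Kmt5c had values of 8.23, 7.25, 9.56 and 9.48, also lowest on control 2, and differed by 1.29 without that array. For Hapln3, Dok4, Pacs2, Ap1s3 and Kmt5c, every mucosa array of either genotype lay above both control tumour arrays. Dok4, for example, stood at 9.92 and 9.62 in control and at 9.97 and 9.40 in deficient mucosa. For Ildr2, Vstm2b and Ak4, control mucosa lay below both control tumour arrays. The part of RNA quality in this was not tested.

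On the lower side, 6 of the 12 genes belonged to the groups above that touch interferon or cytotoxic cells, Ifit1, Usp18, Rsad2, Gzmb, Gzma and Ccl5. Spint1, Slc15a1, Ptgs2 and Sulf1 were 4 more. The last 2 were Vip, a neuropeptide of enteric neurons, with values of 9.75, 9.37, 7.96 and 8.34 (-1.41 ± 0.26), and Heyl, a repressor downstream of Notch, with values of 6.77, 6.41, 5.57 and 5.28 (-1.17). In both, the groups stood apart. The difference had the same sign in mucosa for 9 of the 12 lower and 8 of the 12 higher genes, and of all 13119 genes tested 5540 had opposite signs in the tissues, so agreement of sign was common in general.

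A further 8 genes in each direction, also chosen for no overlap, had at least 1 tumour array under the filter value, so only bounds can be given. With such arrays raised to the filter value, Nlrp10 was at least 4.49-fold and Pcp4l1 at least 3.61-fold higher in deficient tumours, beside Lipf, and the other 5 were at least 1.32-fold to 2.28-fold higher. Nlrp10 passed the filter on the mean of all arrays only through its deficient tumour arrays, at 7.24 and 8.17. Its control arrays stood at 3.36 and 2.98 in mucosa and at 5.88 and 4.72 in tumours, so its selection was not independent of its difference. Among the other 5, the same holds for Camk4 and Prss51. Oas2, another antiviral gene, was at least 2.91-fold lower, Cacnb1 at least 2.54-fold and Hdgfl1 at least 2.49-fold lower. All 4 arrays of Slc34a3 were under the filter value, so no fold is given for it.

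**Figure D5:**
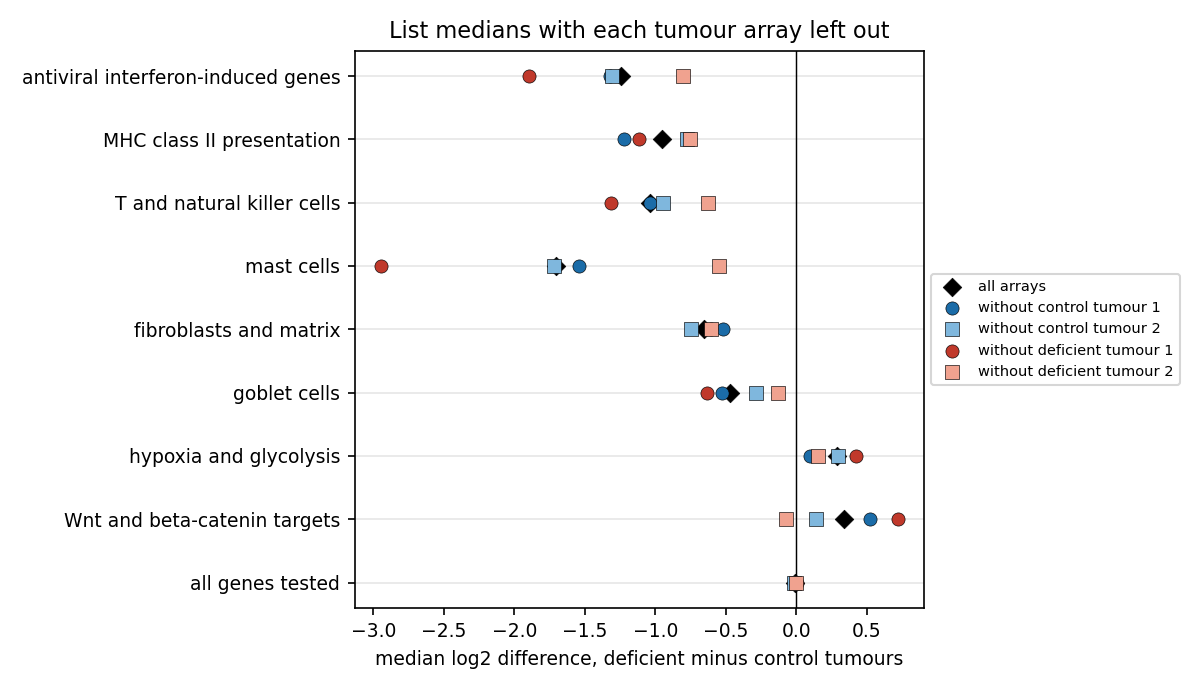
Median log2 difference of deficient minus control tumours (x axis) for gene lists with all 4 tumour arrays and with each array left out in turn. The fibroblast median runs from -0.74 to -0.52 and the MHC class II median from -1.22 to -0.76. The mast cell median runs from -2.95 to -0.55 and the Wnt median from 0.72 to -0.07 depending on which deficient array is used.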

How the data were processed

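The deposited table holds log2 signals, 1 per probe set and array; per the submitters' processing notes MAS5 and RMA were used, and their versions and roles are not stated. The deposited values are of the MAS5 type, with no quantile normalization, and some probe sets per array (313 to 762) stood at log2 0. Signal over background is not known, and the number of arrays limits the precision. Probe sets were named with the platform annotation: of 45101, 34958 had a single gene and 932 several, and 34754 matched the RefSeq gene table of GRCm38.p6. The brightest single-gene probe set was kept where its mean passed the 40th percentile (5.20 log2, 36.8 linear). A limma 3.58.1 model (R 4.3.3) with 4 group means was fitted to all 8 arrays (4 residual and 3.52 prior degrees of freedom). Tests were two-sided, with Benjamini-Hochberg adjustment over 13119 genes and a threshold of 0.05. A run on simulated arrays with independent noise checked only that planted differences were recovered on average, not how often genes are called. Figures were drawn with matplotlib 3.10.9.

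Genes named were Spint1, the 12 per direction with the smallest p, no overlap and all tumour arrays above the filter value, the 8 per direction with an array below it, and, from each list, up to 5 members in the direction of the median, up to 2 in the other and those that define its role. Where tumour arrays lay under the filter value, bounds raise them to it. The comparison, gene lists and tests were chosen with earlier results of these data known. Gene signals gave no clear pairing of samples by replicate number (correlation of deviations -0.138 between control and deficient tumours, 0.220 between control and deficient mucosa and 0.109 or less for the other group pairs), so no block was used. The spike-in signal, however, was high on replicate 2 in every group except control tumours. Alternatives changed the normalization, filter, probe set rule, weights, blocking, spike-in term and the arrays used.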

Additional observations from a re-analysis of the deposited data

How the results depend on the processing

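No gene was called with limma in tumours, or for the difference between tissues, under any alternative run. The number of genes at an unadjusted p under 0.05 in tumours (802) ranged from 334 to 1645 when 1 array was left out: 1268 without control 1, 334 without control 2, 1645 without deficient 1 and 347 without deficient 2. Such fits assume that the lone array varies like those of the other groups. The larger direction at that threshold also depended on the array left out. More genes were higher than lower without control 1, and more were lower without control 2, deficient 1 or deficient 2. The part of RNA quality in this was not tested. The other alternatives gave counts of 630 to 1027. With the replicate block the count was 884 on all 8 arrays and 690 on the tumour arrays alone, with 0 called, and Spint1 kept its direction. Crossing the pairs of tumour arrays, an alternative chosen after seeing the data, gave 1027 and 0 called. Of genes at an unadjusted p under 0.05, 54.7% were higher with the deposited values, 41.6% after quantile normalization, 46.5% after centring and 63.9% with the mean of probe sets. Pdgfra was at 0.45, at -0.23 without deficient 2 and at 1.13 without deficient 1, and Mmp14 was at -0.32 and at 1.43 with the mean of its probe sets; the cause was not tested. Array weights are equal within a group of 2 by construction and cannot set control 2 apart.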

Other observations

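Of 17 matrix proteases and inhibitors, 8 were lower on both deficient tumour arrays than on both controls, against 19.4% of all genes tested, with a median log2 difference of -0.32 and 0 genes at an unadjusted p under 0.05 by limma in either direction. Genes of oxidative phosphorylation had a median of -0.17 over 21 genes, and genes of the unfolded protein response had a median of 0.00 over 17 genes, also with 0 at that threshold. For oxidative phosphorylation control 2, the array of high Gapdh ratio, was above control 1 in 21 of 21 genes, and the median was 0.01 without control 2 and -0.34 without control 1; the part of RNA quality in it was not tested. Values are given for control 1, control 2, deficient 1 and deficient 2 in turn. Smooth muscle genes as a list stood near 0, but Myl9, a regulatory light chain of myosin, had values of 11.31, 10.88, 11.84 and 13.02 (1.33 ± 0.39) in tumours and differed by 2.59 in mucosa. Mmp14, a membrane-bound matrix protease, had values of 12.56, 12.43, 12.05 and 12.30, a difference of -0.32 in tumours and of 1.84 in mucosa, but its tumour value was 1.43 with the mean of its probe sets. Cldn4, a tight junction protein of epithelium, had values of 12.60, 11.93, 12.54 and 13.29 (0.65 ± 0.38), and the groups overlapped.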
